A study of Mus musculus with 6 samples.

Results

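Messenger RNA of 9 genes of the urokinase system and of pericellular proteolysis was measured in spinal cord microglia. The genes were taken from the deposited table by symbol: the protease Plau, its receptor Plaur, the serpin Serpine2, the matrix metalloproteinases Mmp14 and Mmp2, the inhibitors Timp1, Timp2 and Timp3, and the collagen receptor Mrc2. They are 9 of 55401 genes in the table, and 8 of them passed the filter on low counts, with Timp1 left out. The list was chosen by function, with the measured fold changes and p-values of this genotype contrast known, and Plau was listed for its small p (sixth of 16248 tested). The members' differences between the genotypes are therefore given as a description and not as a test.

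Both groups were untreated mice aged 7 months. NTg libraries came from non-transgenic C57BL/6 animals, and ATXN2-Q33;TDP-43 libraries, called mutant here, from heterozygous double mutants labelled as a knock-in of hATXN2-Q33 with hTDP-43. ATXN2 and TDP-43 are RNA-binding proteins linked to amyotrophic lateral sclerosis, and the comparison asks which RNAs differ between microglia of the 2 genotypes. Cells were taken from the cord with beads against CD11b, an integrin that neutrophils, monocytes and border macrophages carry as well as microglia. Each library was made from a pool of 3 cords, 9 animals a group, so the 3 libraries of a group are separate pools. They are numbered as in the sample titles, 7, 9 and 11 for NTg and 8, 10 and 12 for the mutants. The regulatory sequence that drives the human TDP-43 is not given in the sources used here. Mouse Tardbp ran from 88.6 to 104 CPM over the 6 libraries, with overlap. Mouse Atxn2 ran from 94.1 to 96.0 CPM in NTg and from 99.5 to 104 CPM in the mutants. The Atxn2 groups were apart, as were 3.27% of all genes tested in that direction. Neither gene checks the genotype, because no human sequence was counted. CPM is a count relative to its library total, scaled by the TMM method, and was computed from total RNA that had been depleted of rRNA and sequenced with strand kept.

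Urokinase is a secreted serine protease that binds a receptor on the cell surface and there turns plasminogen into plasmin, a broad protease of fibrin and matrix. Serpins block the activator, and the complex with its receptor is cleared by endocytosis. Plasmin and membrane-bound Mmp14 activate other metalloproteinases, among them Mmp2, which Timp2 both assists and inhibits, and Mrc2 takes up the collagen fragments that result. In the nervous system these proteins are known for cell migration, matrix turnover and the growth and repair of axons.

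The labelled cell type was checked against 14 microglia markers. All had counts in every library, and their summed level ran from 12346 to 17927 CPM. Total counts ran from 12553570 to 22854628 per library. NTg replicate 9 and mutant replicate 10 stood apart from the others by myelin and vessel RNA: summed oligodendrocyte markers were 1676 and 1172 CPM there and 170 to 448 CPM elsewhere. Mutant replicates 8 and 10 were highest in neutrophil markers, with sums of 2305 and 1654 CPM against 665 to 1248 CPM in the other 4 libraries.

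Plau, which codes for urokinase, was the most strongly expressed member per exon length and the one whose libraries were closest to each other within a group. It measured 433, 434 and 404 CPM (NTg replicates 7, 9 and 11) against 325, 306 and 314 CPM (mutant replicates 8, 10 and 12). Every mutant library lay below every NTg library, and the highest mutant value was well under the lowest NTg value. The means were 423.5 ± 17.1 and 315.0 ± 9.55 CPM (SD, n = 3 each), so the mutant mean stood at 0.744 of the NTg mean. As a log2 fold change this was -0.43 (SE 0.08, 95% interval -0.62 to -0.24). The coefficient of variation within groups was 4.04% in NTg and 3.03% in the mutants, where counting error alone would give 1.29%. In bulk RNA, fewer cells of a type and less RNA per cell cannot be told apart. Plau (ENSMUSG00000021822.3) lies on mm10 chromosome 14, 20836660 to 20843385, on the plus strand.

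Plaur, the receptor that holds urokinase at the membrane (ENSMUSG00000046223.10, mm10 chromosome 7, 24462484 to 24475968), showed no such gap. It measured 239, 223 and 188 CPM (NTg replicates 7, 9 and 11) against 242, 217 and 179 CPM (mutant replicates 8, 10 and 12). The groups overlapped over their whole range, and each group held 1 low library, NTg replicate 11 and mutant replicate 12. As a log2 fold change the difference was -0.03 (SE 0.13, 95% interval -0.33 to 0.27). Per exon length, Plau RNA was 2.01, 2.15 and 2.38 times Plaur RNA in NTg and 1.48, 1.56 and 1.94 times in the mutants. This ligand to receptor ratio (from RPKM, the CPM divided by exon length in kilobases) did not overlap between the groups.

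Serpine2, or protease nexin-1, is a serpin that inhibits thrombin and urokinase (ENSMUSG00000026249.10, mm10 chromosome 1, 79794197 to 79861180). Its CPM were 177, 159 and 207 in NTg replicates 7, 9 and 11 and 169, 163 and 190.0 in mutant replicates 8, 10 and 12. The values of the groups interleaved, with NTg replicate 9 lowest and NTg replicate 11 highest. On the log2 scale the difference was -0.06 (SE 0.12, 95% interval -0.32 to 0.20).

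**Figure D1:**
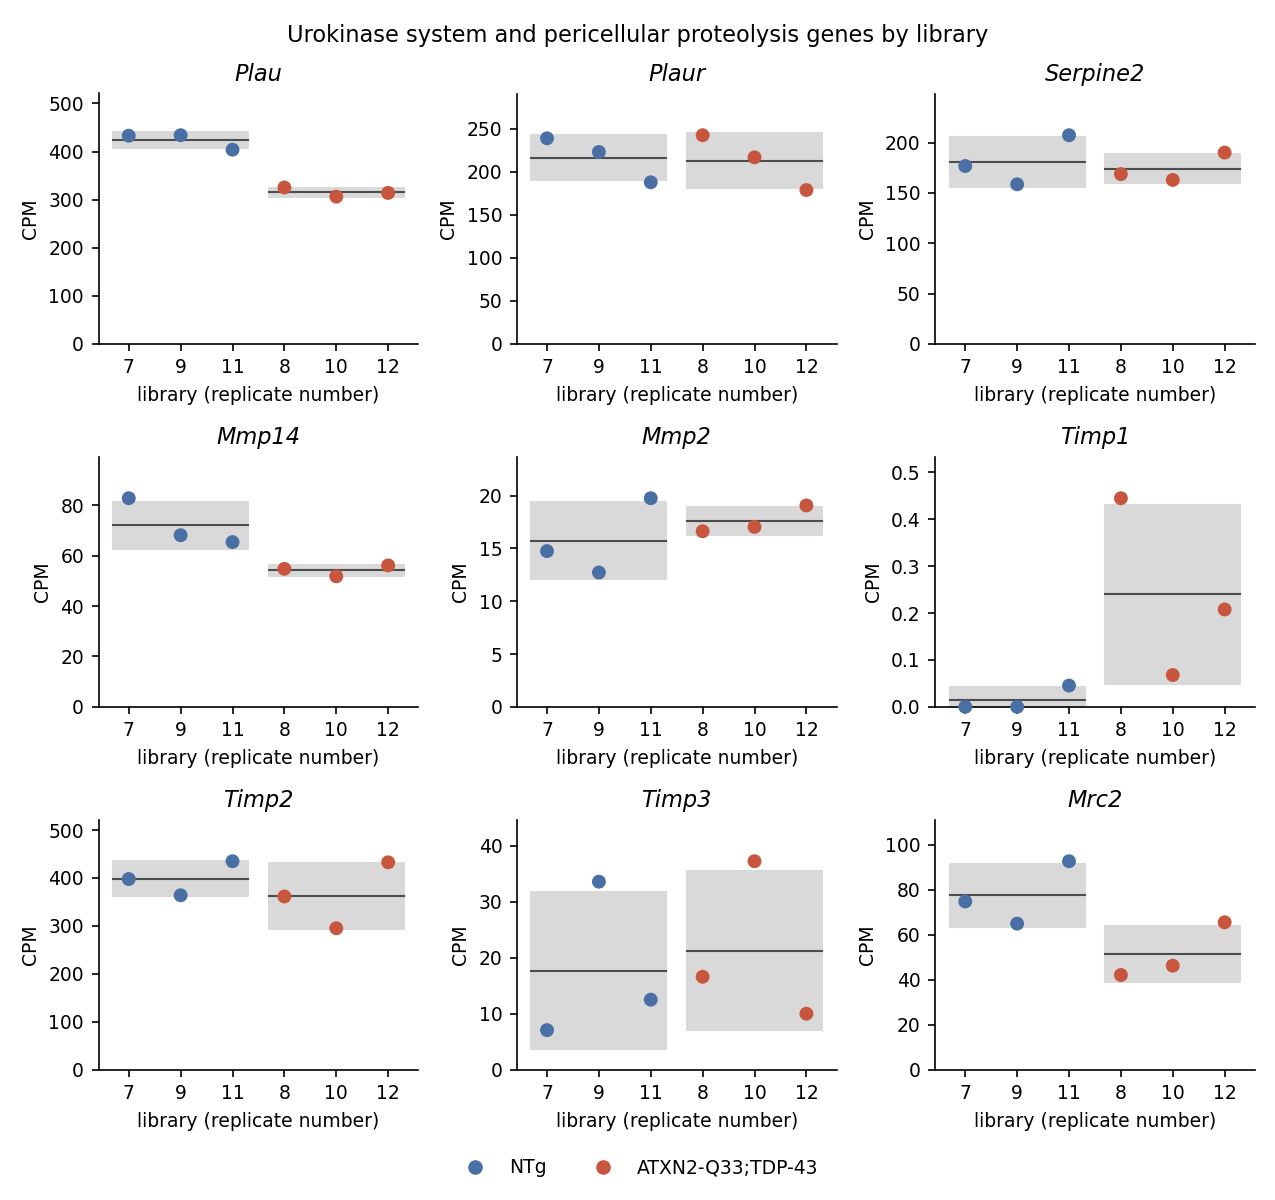
Level of each of the 9 members in CPM (vertical axis, from 0) in the 6 libraries (horizontal axis, replicate number), with blue points for NTg and red points for ATXN2-Q33;TDP-43. Lines are group means and grey bands 1 SD either side. The bands of Plau and Mmp14 lie apart (315 against 423.5 CPM and 54.3 against 72.2 CPM as means). Those of Timp1, which had at most 6 counts in a library, lie apart too. The bands of Plaur, Serpine2, Mmp2, Timp2, Timp3 and, narrowly, Mrc2 overlap.

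Mmp14, a membrane-anchored metalloproteinase that cleaves collagen at the cell surface and activates pro-Mmp2, was the other of the 8 tested members whose libraries did not overlap. It measured 82.9, 68.2 and 65.5 CPM (NTg replicates 7, 9 and 11) against 54.8, 51.8 and 56.2 CPM (mutant replicates 8, 10 and 12). The gap between the lowest NTg and the highest mutant library was narrower than for Plau, and NTg replicate 7 was the highest. The means were 72.2 ± 9.37 and 54.3 ± 2.23 CPM (SD, n = 3 each), a ratio of 0.752. On the log2 scale the difference was -0.41 (SE 0.11, 95% interval -0.65 to -0.17). Without NTg replicate 7 the log2 fold change was -0.30. Mmp14 (ENSMUSG00000000957.11) lies on mm10 chromosome 14, 54431612 to 54445364, on the same chromosome as Plau.

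Mmp2, the secreted gelatinase that Mmp14 activates (ENSMUSG00000031740.8, mm10 chromosome 8, 92827291 to 92853420), was low. Its CPM were 14.7, 12.7 and 19.7 in NTg replicates 7, 9 and 11 and 16.6, 17.03 and 19.1 in mutant replicates 8, 10 and 12. The mutant values lay inside the NTg range. As a log2 fold change the difference was 0.16 (SE 0.18, 95% interval -0.25 to 0.56), with a sign opposite to that of Mmp14. Per exon length, Mmp14 RNA was 3.18, 3.03 and 1.87 times Mmp2 RNA in NTg and 1.87, 1.72 and 1.67 times in the mutants.

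Mrc2, also called Endo180, is the endocytic receptor that takes cleaved collagen into the cell (ENSMUSG00000020695.14, mm10 chromosome 11, 105292643 to 105351139). It measured 74.8, 65.0 and 92.7 CPM (NTg replicates 7, 9 and 11) against 42.1, 46.3 and 65.5 CPM (mutant replicates 8, 10 and 12). The groups touched at 1 point only, where mutant replicate 12 lay just above NTg replicate 9. The means were 77.5 ± 14.1 and 51.3 ± 12.5 CPM (SD, n = 3 each), a ratio of 0.662. The log2 fold change of -0.59 (SE 0.19, 95% interval -1.04 to -0.14) was the most negative of the 8, with a wider interval than those of Plau and Mmp14. It was -0.81 without mutant replicate 12 and -0.44 without NTg replicate 11.

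RefSeq's promoter table (GRCm38.p6, the assembly of mm10) held 6 of the 9 members and not Plau, Mmp2 or Mrc2. The 250 bases before the start are shown for Mmp14, whose groups were apart, and for Plaur, whose groups overlapped. Both windows are on the plus strand, at chr14:54431348-54431597 and chr7:24462233-24462482. Capitals mark matches on either strand to letters of AP-1 (TGANTCA), the GC box (GGGCGG), Egr1 (GCGGGGGCG), PU.1 (GAGGAA) and the TATA box (TATAAA). GC box and Egr1 letters overlap each other in both windows.
Mmp14: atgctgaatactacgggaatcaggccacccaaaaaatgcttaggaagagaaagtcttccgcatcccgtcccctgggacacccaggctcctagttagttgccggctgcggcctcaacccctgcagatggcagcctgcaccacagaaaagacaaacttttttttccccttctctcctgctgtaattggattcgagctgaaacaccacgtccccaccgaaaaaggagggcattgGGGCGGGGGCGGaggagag
Plaur: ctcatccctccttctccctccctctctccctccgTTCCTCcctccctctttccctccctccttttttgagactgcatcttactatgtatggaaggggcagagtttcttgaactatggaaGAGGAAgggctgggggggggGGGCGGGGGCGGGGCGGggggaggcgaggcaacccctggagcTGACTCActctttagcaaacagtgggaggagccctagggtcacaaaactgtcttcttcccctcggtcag
The Mmp14 window held 2 GC boxes and 1 Egr1 match and no match to the other 3 motifs. The Plaur window held 3 GC boxes, 1 Egr1 match, 2 PU.1 matches and 1 AP-1 match that begins 69 bases before the start. Of all 32851 windows of the same length, 32.7% held GC box letters, 2.57% those of Egr1, 23.3% those of PU.1, 6.75% those of AP-1 and 12.4% those of the TATA box. Of the 6 members in the table only Plaur held the AP-1 letters, and all 6 held at least 1 GC box. These matches are a description of the letters in the window.

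Of the 3 TIMP inhibitors, Timp2 was abundant, Timp3 low and Timp1 close to 0. Timp2 (ENSMUSG00000017466.9, mm10 chromosome 11, 118301069 to 118355740), which inhibits metalloproteinases and also docks pro-Mmp2 to Mmp14, measured 398, 364 and 435 CPM (NTg replicates 7, 9 and 11) against 361, 295 and 433 CPM (mutant replicates 8, 10 and 12). The groups overlapped, and mutant replicate 10 was the lowest library. The log2 fold change was -0.14 (SE 0.14, 95% interval -0.45 to 0.18), and -0.01 without mutant replicate 10. Timp2 RNA per exon length was 7.34, 8.17 and 10.2 times Mmp14 RNA in NTg and 10.1, 8.71 and 11.8 times in the mutants, with overlap.

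Timp3 binds extracellular matrix and inhibits both metalloproteinases and ADAM sheddases (ENSMUSG00000020044.13, mm10 chromosome 10, 86300372 to 86349506). It was low and the most uneven of the tested members, at 7.09, 33.6 and 12.5 CPM (NTg replicates 7, 9 and 11) against 16.6, 37.3 and 10.02 CPM (mutant replicates 8, 10 and 12). NTg replicate 9 and mutant replicate 10 were the high libraries in both groups. Its coefficient of variation was 78.9% in NTg and 66.7% in the mutants, against a counting error of 5.71%. The log2 fold change of 0.26 had a 95% interval of -1.76 to 2.28 (SE 0.78). It was 1.10 without NTg replicate 9 and -0.43 without mutant replicate 10.

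The same libraries were high in vessel and myelin markers. The summed level of 10 endothelial markers was 118, 394 and 169 CPM (NTg replicates 7, 9 and 11) against 209, 414 and 115 CPM (mutant replicates 8, 10 and 12). Summed mural markers were 37.6, 158, 73.9, 81.7, 163 and 47.5 CPM in the same order. All 10 endothelial and all 10 mural markers had counts in every library, and none was at 0. Their part in the Timp3 values was not tested. Fibroblasts are another known source of TIMPs and Mmp2; summed fibroblast markers were 5.80, 10.15 and 10.3 CPM (NTg) against 34.6, 10.99 and 5.61 CPM (mutant), and 5 of 10 had counts in every library.

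Timp1, the inducible inhibitor known from reactive astrocytes and fibroblasts, was close to the limit of detection (ENSMUSG00000001131.11, mm10 chromosome X, 20870166 to 20874735). It had 0, 0 and 1 counts in NTg replicates 7, 9 and 11 and 6, 1 and 4 counts in mutant replicates 8, 10 and 12. The groups did not overlap, with the mutants higher, by as little as 0.045 against 0.068 CPM between NTg replicate 11 and mutant replicate 10, each with 1 count. At these counts no fold change is given. The highest library, mutant replicate 8, also had the highest sum of fibroblast markers (34.6 CPM). Col1a1 and Col1a2 gave 18.6 and 9.20 CPM of it, Igf2 3.19 CPM and Fbln1 2.23 CPM. Col3a1 stood at 0.82 CPM, Dpt at 0.37, Lum at 0.15 and Dcn at 0.07 CPM, and Slc6a13 and Col6a1 at 0. Of these, Col1a1, Col1a2, Fbln1, Dpt and Lum were highest in this library and the others were not. Mutant replicate 12, next with 4 Timp1 counts, had the lowest sum of fibroblast markers of all libraries (5.61 CPM). The part of such cells was not tested.

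**Figure D2:**
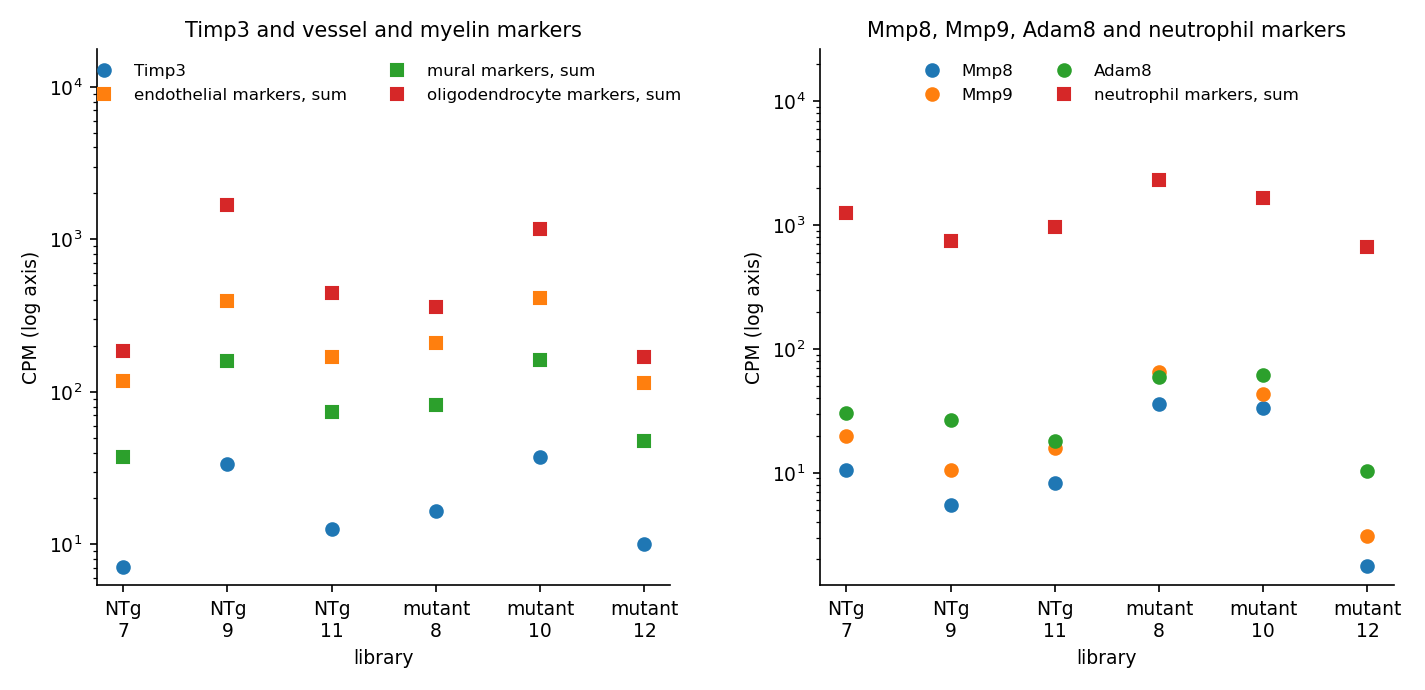
Members and pathway genes beside markers of other cells, in CPM on a log axis, for each of the 6 libraries (horizontal axis). Left, Timp3 (circles) with the summed endothelial, mural and oligodendrocyte markers (squares): all 4 are highest in NTg 9 and mutant 10. Right, Mmp8, Mmp9 and Adam8 (circles) with the summed neutrophil markers (squares): all 4 are highest in mutant 8 and 10 and lowest in mutant 12.

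Levels of different genes were compared per exon length. Over the 6 libraries, RPKM ranged from 129 to 183 for Plau, 75.8 to 112 for Timp2, 68.2 to 92.6 for Plaur and 19.1 to 25.0 for Serpine2. The ranges were 8.70 to 13.9 for Mmp14, 6.31 to 13.9 for Mrc2, 3.77 to 5.86 for Mmp2 and 0.87 to 4.57 for Timp3. Of neighbours in this order, Timp2 and Plaur, Mmp14 and Mrc2, and Mmp2 and Timp3 overlapped, while Plau stood above Timp2, Serpine2 below Plaur and above Mmp14, and Mmp2 below Mrc2 in every library. By mean RPKM, Plau lay above 98.4% of the genes tested, Timp2 above 97.4% and Plaur above 96.9%, while Mmp2 lay above 58.1% and Timp3 above 41.4%. The soluble activator, its receptor and 1 inhibitor made up the highly expressed part of the list, and the gelatinase Mmp2 and matrix-bound Timp3 the weakly expressed part.

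**Figure D3:**
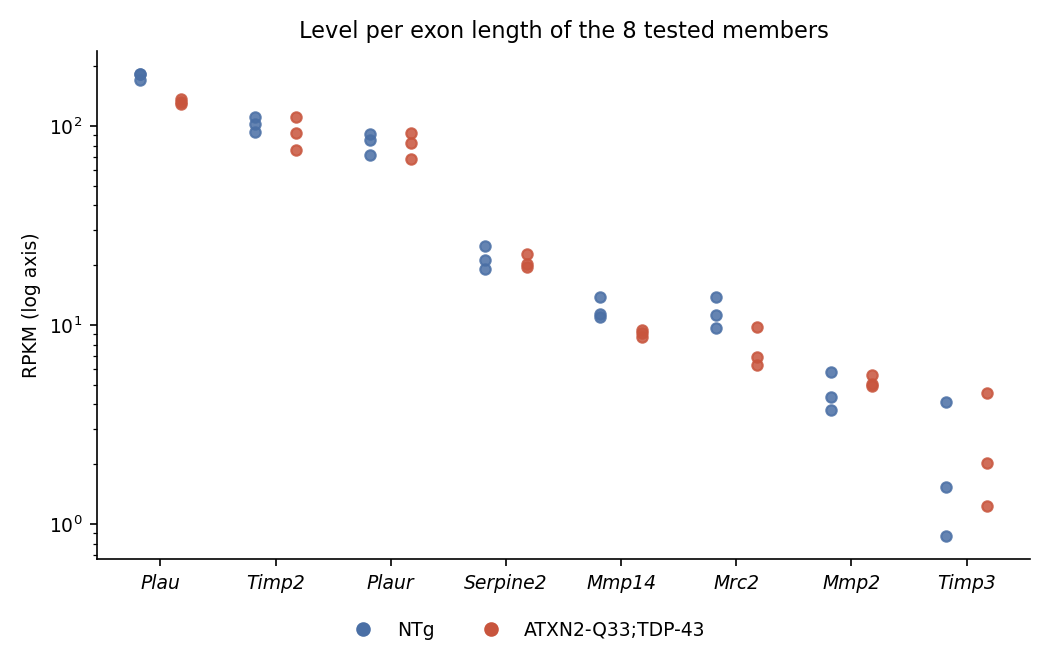
RPKM (vertical axis, log scale) of the 8 tested members in order of their mean, 1 point a library, NTg in blue at left and ATXN2-Q33;TDP-43 in red at right of each gene. Plau runs from 129 to 183 and Timp3 from 0.87 to 4.57.

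None of the 8 tested members passed an adjusted p of 0.05 in edgeR's quasi-likelihood test across all genes, where the share called was 0% of 16248 genes. DESeq2, run as an alternative, called Plau lower and no other member, where it called 0.0123% of all genes lower and 0.0431% in either direction. An unadjusted p under 0.05 was found for 3 of the 8, all lower, beside 0.862% of all genes, and for 0 in the other direction, beside 1.4%. Groups were apart for 2 of the 8, Plau and Mmp14, both lower in the mutants, beside 3.58% of all genes lower, 3.27% higher and 6.85% in either direction. Because Plau was on the list for its value in this contrast, nothing is read from these counts. Fold changes were negative for 6 of the 8 and positive for 2, with a median log2 fold change of -0.10, beside 0.01 for all genes tested.

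**Figure D4:**
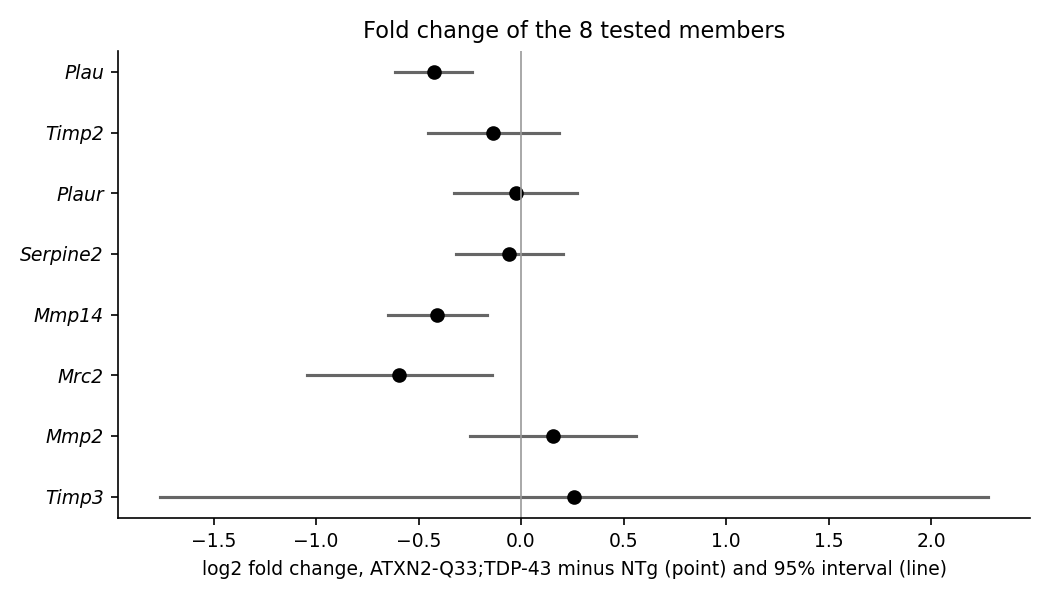
Log2 fold change (horizontal axis, ATXN2-Q33;TDP-43 minus NTg) of the 8 tested members with 95% intervals, ordered by level. The intervals of Plau (-0.62 to -0.24), Mmp14 (-0.65 to -0.17) and Mrc2 (-1.04 to -0.14) lie below 0, and the other 5 include it.

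The members followed the microglial RNA of a library to different degrees. The 14 microglia markers summed to 15364, 13878 and 17513 CPM (NTg replicates 7, 9 and 11) against 15232, 12346 and 17927 CPM (mutant replicates 8, 10 and 12) (exact two-sided permutation p = 0.9). Set against that sum, Timp2 became nearly level: 259, 262 and 248 per 10000 marker counts in NTg and 237, 239 and 241 in the mutants, without overlap. Its coefficient of variation went from 8.90% to 2.83% in NTg and from 18.9% to 0.845% in the mutants. Serpine2 stood at 115, 114 and 118 in NTg and 111, 132 and 106 in the mutants on that scale. The coefficient of variation of Serpine2 fell from 13.6% to 1.9% in NTg and rose from 8.23% to 11.9% in the mutants.

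Plau behaved the other way from Timp2. Per 10000 marker counts it stood at 282, 313 and 231 in NTg replicates 7, 9 and 11 and 214, 248 and 175 in mutant replicates 8, 10 and 12, so that mutant replicate 10 lay above NTg replicate 11. Its coefficient of variation went from 4.04% to 15.1% in NTg and from 3.03% to 17.2% in the mutants. Mmp14 also overlapped on this scale, at 53.9, 49.1 and 37.4 in NTg and 36.0, 42.0 and 31.4 in the mutants. Mrc2 did not, at 48.7, 46.8 and 52.9 in NTg and 27.7, 37.5 and 36.6 in the mutants. The ratio of mutant to NTg means was 0.772 for Plau, 0.778 for Mmp14 and 0.685 for Mrc2, near the ratios from CPM, so the scale changed which groups overlapped more than the size of the difference.

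**Figure D5:**
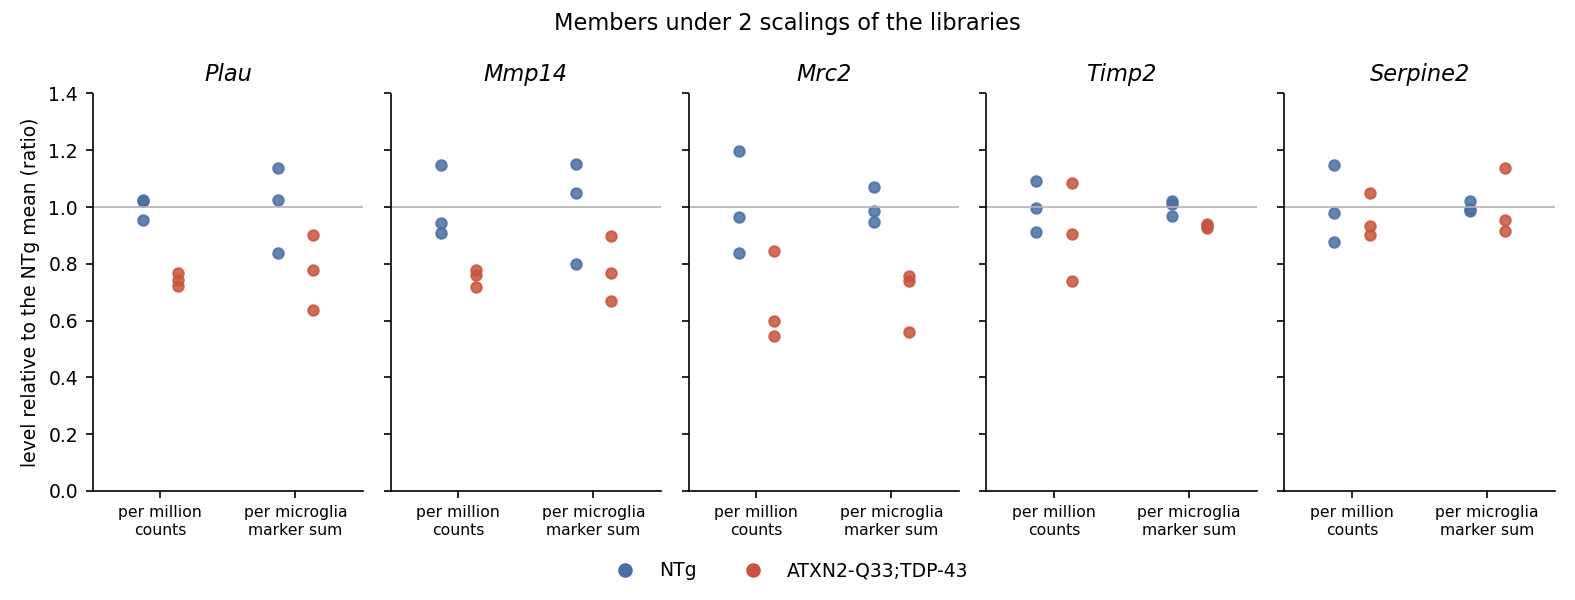
Level of 5 members relative to their NTg mean (vertical axis, from 0), as TMM-scaled CPM (left in each panel) and per summed microglia markers (right). Points are libraries, NTg in blue and ATXN2-Q33;TDP-43 in red. Plau and Mmp14 are apart at left and overlap at right, while Mrc2 and Timp2 overlap at left and are apart at right.

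The genes whose profile over the 6 libraries was most like that of Plau were found by the root mean square difference of centred log2 CPM, over 7779 genes of at least 10 CPM. They were Caprin2 (0.05), Nhlrc3 (0.06), Rap2b (0.08), Rragc (0.09) and Vcam1 (0.09). Mmp14 came ninth with 0.09, ahead of all other members, which stood at 0.23 for Timp2, 0.24 for Plaur, 0.25 for Serpine2, 0.28 for Mrc2, 0.38 for Mmp2 and 0.92 for Timp3. Among the other members, Serpine2 and Timp2 were closest to each other (0.12). The measure shares libraries, scaling and the genotype difference between genes and carries no test.

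Other genes of the pathway were taken from 9 lists. Together they named 121 genes, of which 88 were tested, 46 above and 42 below 0; edgeR's quasi-likelihood test called 0 higher and 0 lower, as it did among all genes (0%). An unadjusted p under 0.05 was reached by 2 of the 88, beside 2.26% of all genes tested, and DESeq2 and limma called none of the 88. Groups were apart for 7 of the 88, lower in the mutants for Cd63, Adam17, Adamts10 and Sdc4 and higher for S100a10, Tfpi and Mmp28, a share near the 6.85% of all genes tested. Of the 19 genes of plasminogen activation 13 were tested, with a median log2 fold change of 0.05. Plg, the plasminogen gene itself, had no count in any library.

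The smallest p-values of that list belonged to S100a10, Anxa2 and Klkb1. S100a10 and Anxa2 form a complex that binds plasminogen at the cell surface. S100a10 measured 7.09, 8.89 and 7.72 CPM (NTg replicates 7, 9 and 11) against 10.98, 10.1 and 9.61 CPM (mutant replicates 8, 10 and 12), without overlap (log2 fold change 0.37, SE 0.18). Anxa2 measured 17.6, 17.3 and 14.2 CPM (NTg) against 26.3, 37.3 and 14.4 CPM (mutant), with the high values in mutant replicates 8 and 10, the libraries highest in neutrophil markers. Klkb1, plasma prekallikrein, differed by -0.58 on the log2 scale (SE 0.35). Plat, the tissue-type activator, stood at 5.15, 17.9 and 4.45 CPM (NTg) against 8.16, 25.4 and 4.31 CPM (mutant), high in the same 2 libraries as Timp3 and the vessel markers. The endocytic receptor Lrp1, which clears urokinase bound to inhibitors, measured 1388 ± 104 and 1413 ± 182 CPM (log2 fold change 0.03, SE 0.12).

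Of the surface partners of the urokinase receptor, the integrin subunits Itgam and Itgb5 were the most abundant, at 1118 to 1619 and 1014 to 1581 CPM, while Itga3, Fpr1 and Fpr2 were low, with a highest value of 3.19 CPM. All 12 were tested, 4 positive and 8 negative, with a median log2 fold change of -0.02 and none called. The smallest p-values were those of the fibronectin receptor subunit Itga5 (log2 fold change -0.20, SE 0.14), the gp130 receptor Il6st (-0.09, SE 0.09) and the alpha V integrin Itgav (-0.09, SE 0.09). Of 10 genes of thrombin and its receptors 5 were tested. Tfpi, the inhibitor of the tissue factor pathway, averaged 21.7 ± 2.09 CPM (NTg) and 26.3 ± 2.18 CPM (mutant; SD, n = 3 each), without overlap (log2 fold change 0.28, SE 0.13). The coagulation protease F10 was at 0.59 to 1.05 CPM in NTg and 3.86, 3.53 and 0.57 CPM in mutant replicates 8, 10 and 12 (log2 fold change 1.81, SE 0.69), and Thbd, or thrombomodulin, had -0.30 (SE 0.36).

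Among the other matrix metalloproteinases 11 of 19 were tested, 10 with a positive fold change, and their median of 0.49 was the highest of the 9 lists. Mmp8 and Mmp9, the collagenase and gelatinase stored in neutrophil granules, had the highest mean CPM of that list in both groups. In mutant replicate 12, the library lowest in neutrophil markers, Mmp28 (4.78 CPM) lay above both. Mmp9 measured 19.8, 10.54 and 15.9 CPM (NTg replicates 7, 9 and 11) against 64.9, 43.2 and 3.06 CPM (mutant replicates 8, 10 and 12). Mmp8 measured 10.6, 5.47 and 8.22 CPM (NTg) against 36.0, 33.4 and 1.77 CPM (mutant) (log2 fold change 1.55, SE 1.09). Summed neutrophil markers were 1248, 749 and 967 CPM (NTg) against 2305, 1654 and 665 CPM (mutant) (exact two-sided permutation p = 0.5). All 10 had counts in every library and none was at 0. Csf3r, which microglia also express, gave 569 to 658 CPM of each sum, while S100a9 ran from 15.7 to 562 CPM. The part of neutrophils in the Mmp8 and Mmp9 values was not tested. Mmp28, epilysin, measured 2.66, 3.95 and 2.27 CPM (NTg) against 4.97, 4.89 and 4.78 CPM (mutant), without overlap (log2 fold change 0.72, SE 0.29), and Mmp13, a collagenase, had 0.67 (SE 0.59).

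Of 9 partners and inhibitors of metalloproteinases 5 were tested, 3 positive and 2 negative. Cd63, the tetraspanin that binds Timp1, measured 126, 135 and 121 CPM (NTg) against 117, 111 and 109.6 CPM (mutant), without overlap (log2 fold change -0.18, SE 0.08). On the log2 scale the convertases Pcsk7 and Furin stood at 0.24 (SE 0.13) and -0.09 (SE 0.10). ADAM and ADAMTS proteases had 12 of 19 tested, 6 positive and 6 negative, with a median of 0.01. Adam17, the sheddase of tumour necrosis factor, measured 173 ± 5.91 and 157 ± 9.10 CPM (SD, n = 3 each), without overlap (log2 fold change -0.14, SE 0.08). Adamts10, also without overlap, had -0.14 (SE 0.12). Adam8, a membrane protease of leukocytes, stood at 59.9, 61.9 and 10.3 CPM in mutant replicates 8, 10 and 12 and at 18.2 to 30.5 CPM in NTg.

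Cathepsins and cystatins had 10 of 11 tested, 2 positive and 8 negative, with a median of -0.11. On the log2 scale the cystatin Cstb stood at -0.27 (SE 0.13), and the lysosomal proteases Ctsz and Ctsb had -0.14 (SE 0.10) and -0.13 (SE 0.10). Other serine proteases and their inhibitors had 9 of 10 tested and a median of -0.13, with Spint2 at 1.36 (SE 0.75), Htra3 at -0.34 (SE 0.20) and hepsin, Hpn, at -0.20 (SE 0.20). Of 12 receptors for collagen and matrix uptake 11 were tested, 6 positive and 5 negative, and the median was 0.01. The syndecans Sdc2 and Sdc4 had 1.06 (SE 0.51) and -0.12 (SE 0.09, without overlap for Sdc4), and the collagen-binding kinase Ddr2 had 0.99 (SE 0.74). Mrc1, the mannose receptor related to Mrc2 and a marker of border macrophages, averaged 75.7 ± 7.43 CPM (NTg) and 68.0 ± 13.2 CPM (mutant; SD, n = 3 each), with overlap (log2 fold change -0.15, SE 0.15).

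Markers of other cells were set beside the members over 14 lists. By the exact two-sided permutation test of the summed level, p ran from 0.2 (ependymal, T cell and B cell markers) to 1, or 0.933 to 1 after adjustment over the lists, and the smallest p that 3 against 3 libraries allow is 0.1. Summed border macrophage markers ran from 130 to 156 CPM in NTg and from 121 to 173 CPM in the mutants, and summed monocyte markers from 122 to 140 CPM and from 68.7 to 264 CPM. Summed astrocyte markers ran from 105 to 127 CPM and from 111 to 176 CPM, neuron markers from 19.0 to 22.9 CPM and from 18.02 to 33.8 CPM, and oligodendrocyte precursor markers from 11.7 to 36.8 CPM and from 8.99 to 40.1 CPM. The list with the largest log2 difference in summed level was that of ependymal markers, whose sum ran from 14.01 to 26.5 CPM and from 24.0 to 80.1 CPM. All 8 of its tested genes were above 0, with a median log2 fold change of 1.34. Groups were apart for 3 of them, higher in the mutants, beside 3.27% of all genes. An unadjusted edgeR p under 0.05 was found for 5, beside 1.4% of all genes in that direction. None was called by edgeR, as among all genes (0%). Of the tested markers, all 10 of neutrophils and 9 of 10 of monocytes were above 0 too, beside 8448 of 16248 genes tested. Their median log2 fold changes were 1.14 and 1.01, and groups were apart for none of these markers. Both sums were lowest in mutant replicate 12. The highest library of the ependymal list was mutant replicate 10, and the part of ependymal RNA in the members’ values was not tested. Without the 2 libraries rich in myelin and vessel markers (NTg replicate 9 and mutant replicate 10), log2 fold changes were -0.38 for Plau, -0.41 for Mmp14 and -0.63 for Mrc2.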

How the data were processed

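Values are the authors' raw counts of fragments for each gene, unnormalized, with exon lengths. Per the file headers they came from featureCounts 1.6.1 run with strand setting 2 on paired fragments and GENCODE vM25 (mm10), with a fragment counted for each gene it overlaps. No member had a same-strand exon overlap with another gene. Trim Galore 0.4.1 and TopHat2 are named in the submitters' processing notes. A further 6 columns belong to other samples and were not used. Symbols were matched by Ensembl identifier for 55141 of 55401 genes.

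Genes passing filterByExpr (minimum count 10) numbered 16248. The comparison used edgeR 4.0.16 (R 4.3.3) with TMM, a robust quasi-likelihood fit over the 6 libraries without covariates, and Benjamini-Hochberg adjustment over all genes. Fold changes are log2, ATXN2-Q33;TDP-43 minus NTg, with 95% intervals from the t distribution. RPKM uses the exon length of all isoforms merged. Libraries differed by more than counting error (chi-square of 6.56 to 37.2 per degree of freedom over all pairs). Alternatives, with DESeq2 1.42.0 and limma 3.58.1 (voom) among them, covered test, normalization, filter, threshold, a covariate and leaving out each library. The edgeR step was tested on simulated data. It called 7.69% of genes changed 1.5-fold (14.3% of those above 10 CPM). Of genes changed 2-fold it called 49.2% (79.5% above 10 CPM), so most changes of 1.5-fold were missed.

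The members and lists were chosen with earlier results of these data known. All members are named, and of each other pathway list the genes with the smallest p, up to 3. Plg, Plat, Lrp1, Mmp9, Adam8 and Mrc1 were named after their values were seen.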

Additional observations from a re-analysis of the deposited data

How the results depend on the processing

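No paired analysis was run, because the groups share no replicate numbers and the labels name no pairs. The numbers alternate between the groups, and whether libraries with neighbouring numbers were prepared together is not given in the labels. Over 16 alternatives the log2 fold change of Plau ran from -0.46 to -0.36 and that of Mrc2 from -0.85 to -0.44, always negative. Plau was at -0.43 under DESeq2, which called it (adjusted p = 0.00208). The lowest adjusted p of Plau under any other alternative was 0.481, from edgeR without a filter and without mutant replicate 12. With the alignments that the headers mark as combined (NTg replicates 7 and 9) as a covariate, where NTg rests on replicate 11, Plau was at -0.36, Mmp14 at -0.27, and Plaur (0.18) and Mmp2 (-0.17) changed sign. Scaled on the microglia markers, an alternative chosen after seeing the data, Plau was at -0.37. That scaling moved the median log2 fold change of all genes tested as well, to 0.07 from 0.01.

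The number of members called was 1 under DESeq2 and 0 otherwise. The number of genes called was 7 under DESeq2, 6 without a filter on low counts, 0 to 2 when 1 library was left out (2 without ATXN2-Q33;TDP-43 replicate 12) and 1 without NTg replicate 9 and ATXN2-Q33;TDP-43 replicate 10, also chosen after seeing the data. No setting called a gene of the pathway lists. Leaving out each library in turn gave 0 members called, 0 pathway genes called and -0.46 to -0.41 for Plau. The cause of these differences was not tested.

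Tested members whose groups did not overlap numbered 2 to 4 when 1 library was left out, where the share of all genes apart was 11.6% to 19.7% in place of 6.85%. There were 4 (Plau, Mmp14, Timp2 and Mrc2, all lower) without ATXN2-Q33;TDP-43 replicate 12, beside 9.29% of all genes lower. With upper quartile scaling there were 3, all lower, beside 3.61% of all genes lower. On the microglia markers there were 2, both lower, Timp2 and Mrc2 instead of Plau and Mmp14. On that scale 1.18% of all genes were apart and lower, and 2.99% apart and higher. By CPM in place of RPKM the rank of 6 members differed. Timp3 ran from -0.43 to 1.10 and changed sign under 2 alternatives, Plaur under 4, Serpine2 under 2 and Mmp2 under 1. With 3 libraries a group the median 95% interval reached 0.49 either side on the log2 scale, and 0.29 above 10 CPM.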
